A study of Chlamydomonas reinhardtii with 16 samples.

Results

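The genes described here are the 100 expressed genes of the green alga *C. reinhardtii* whose transcript level varied least over a day of light and dark. They were chosen from 2828 genes whose mean level reached 10 FPKM, out of 17114 gene models. FPKM counts sequenced fragments relative to transcript length and to all mapped reads of the library. Each library was first scaled to a common 75th percentile, the 2 replicates of each time point were averaged, and genes were ranked by their highest divided by their lowest time-point mean. This ratio chose the genes, so their small ratios are a description and not a result.

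The libraries come from 16 separate 50 mL cultures of dw15.1, grown at 22 °C in TAP, a medium that contains acetate. Before sampling, all cultures had been under alternating 12-hr light and 12-hr dark periods for 48 hr, and no culture was kept in constant light or constant dark during sampling. The groups are 8 time points from ZT 0 to ZT 21 (zeitgeber time, in hr since the last dawn), 3 hr apart, with 2 cultures (A and B) each. Sampling at ZT 0 preceded lights on and sampling at ZT 12 preceded lights off, so that ZT 3, 6, 9 and 12 were lit and ZT 15, 18, 21 and 0 were dark. The libraries hold between 5.87e+06 and 2.19e+07 fragments assigned to gene models. Values per time point have n = 2, and an error given with them is the SD of these replicates.

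In a cycle of light and dark, photosynthesis, metabolism and cell division of green algae take place at set times of day, and the transcripts of a large part of the genome rise and fall with them. Genes whose transcripts stay level are used as reference genes, against which changes of other transcripts are measured. An FPKM is a share of the library and not a number of molecules per cell. Less RNA per cell and a smaller part of the cells expressing a gene cannot be told apart in these whole cultures, and a change of total RNA per cell is not seen.

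The ratio of the 100 genes ran from 1.12 to 1.44 with a median of 1.34, while the median of all 2828 genes was 3.09 and the highest was 913. A ratio of at most 2 was found for 629 of the 2828 genes (22.2%), and one of at most 1.5 for 141. No gap separates the 100 genes from the next. The last genes inside were Cre07.g333900 (1.436) and Cre09.g415850 (1.437), and the first outside were Cre06.g267200 (1.438) and Cre03.g156950 (1.439). At the level floor, the protein kinase gene Cre07.g319850 was inside with a mean of 10.1 FPKM. Cre09.g395800, with a ratio of 1.31, was outside with a mean of 9.96 FPKM.

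Levels below are after scaling unless FPKM as deposited are named, and the times at which a gene was highest or lowest depend on it. As deposited, 96 of the 100 genes had their lowest mean at ZT 3 or ZT 6, compared with 23 after scaling. The time point of the lowest mean was the same in both for 22 genes, and that of the highest mean for 45.

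**Figure D1:**
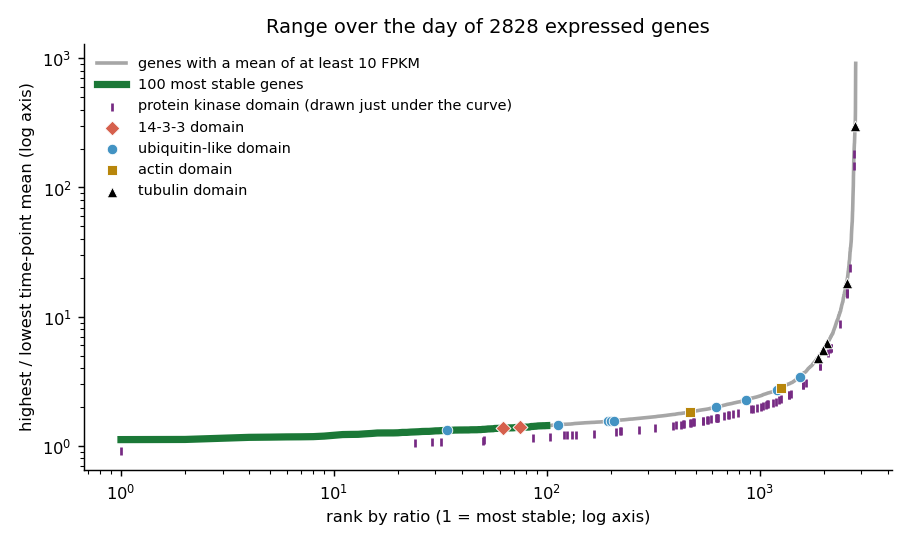
Highest divided by lowest time-point mean (log axis) against rank (log axis) for the 2828 genes at or over 10 FPKM. The thick green part of the curve marks the 100 most stable genes, up to 1.44. Both 14-3-3 genes lie inside it, 1 ubiquitin-like gene does, and no actin or tubulin gene does.

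The most stable gene was Cre02.g117050 (chromosome 2, 5659302 to 5669963 in genome version 4.3), which carries a protein kinase domain, the part of a protein that transfers phosphate to other proteins. In replicate A its levels from ZT 0 to ZT 21 were 16.1, 16.4, 15.4, 16.7, 15.5, 16.5, 15.9 and 16.4 FPKM. In replicate B they were 15.6, 17.3, 14.7, 15.6, 15.4, 16.3, 16.4 and 17.01 FPKM. The values of lit and dark cultures overlapped, and the highest and the lowest value of all were both from lit cultures of replicate B. The means ran from 15.0 ± 0.56 FPKM at ZT 6 to 16.9 ± 0.67 FPKM at ZT 3, a ratio of 1.12. Simultaneous 95% limits over the 28 pairs of time points (Tukey, on log2(FPKM + 1)) allowed a difference of up to 1.24-fold. Such limits start from a range that the rule kept small and hold only for this scaling, so they can be too narrow. Without scaling, the same gene had a ratio of 1.58 and ranked 291.

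Cre01.g012300, for which no domain was used here, came second (chromosome 1, 2058886 to 2063848). Its levels from ZT 0 to ZT 21 were 10.97, 10.9, 10.3, 9.71, 9.57, 10.4, 10.8 and 10.5 FPKM in replicate A. They were 10.9, 10.5, 9.73, 9.74, 10.2, 10.3, 10.8 and 10.8 FPKM in replicate B. Both replicates were lowest between ZT 6 and ZT 12 and higher around dawn, over a ratio of 1.12. Cre13.g577500 (ratio 1.15) was lowest at ZT 3 in both replicates, with 11.7 and 12.0 FPKM, and at most 13.9 FPKM elsewhere. Cre20.g759350 (ratio 1.17) showed mainly disagreement between replicates, with 21.2 and 18.8 FPKM at ZT 6, its highest time point, and 18.2 and 16.1 FPKM at ZT 9, its lowest.

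Cre12.g516450 and Cre02.g126400 had higher levels, with means of 69.97 and 96.1 FPKM. Cre12.g516450 carries a hexapeptide repeat, found in acyl- and other transferases. It was highest at ZT 6 and ZT 9, with 78.1 and 74.4 FPKM and with 77.4 and 74.2 FPKM, and lowest at ZT 21 with 63.6 and 66.7 FPKM. Its ratio was 1.17. This order turned in FPKM as deposited, with 77.6 and 74.4 FPKM at ZT 6 and 85.8 and 87.6 FPKM at ZT 21. Cre02.g126400 carries a calcineurin-like phosphoesterase domain, which in many proteins removes phosphate. Its mean was highest at ZT 9 (104 and 103 FPKM) and lowest at ZT 0 (91.4 and 85.1 FPKM), a ratio of 1.18. Replicate B alone was highest at ZT 3 with 105 FPKM, and replicate A alone was lowest at ZT 12 with 86.8 FPKM. Of the next most stable genes, Cre13.g567800 (77.5 FPKM on average) had the opposite course to Cre12.g516450 after scaling. Its levels fell to 71.5 and 69.3 FPKM at ZT 6 and reached 81.5 and 86.3 FPKM at ZT 21. Cre10.g421850 (1.18), Cre12.g505700 (1.18) and Cre13.g607950 (1.21) complete the 10 smallest ratios, at means between 11.6 and 17.6 FPKM.

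**Figure D2:**
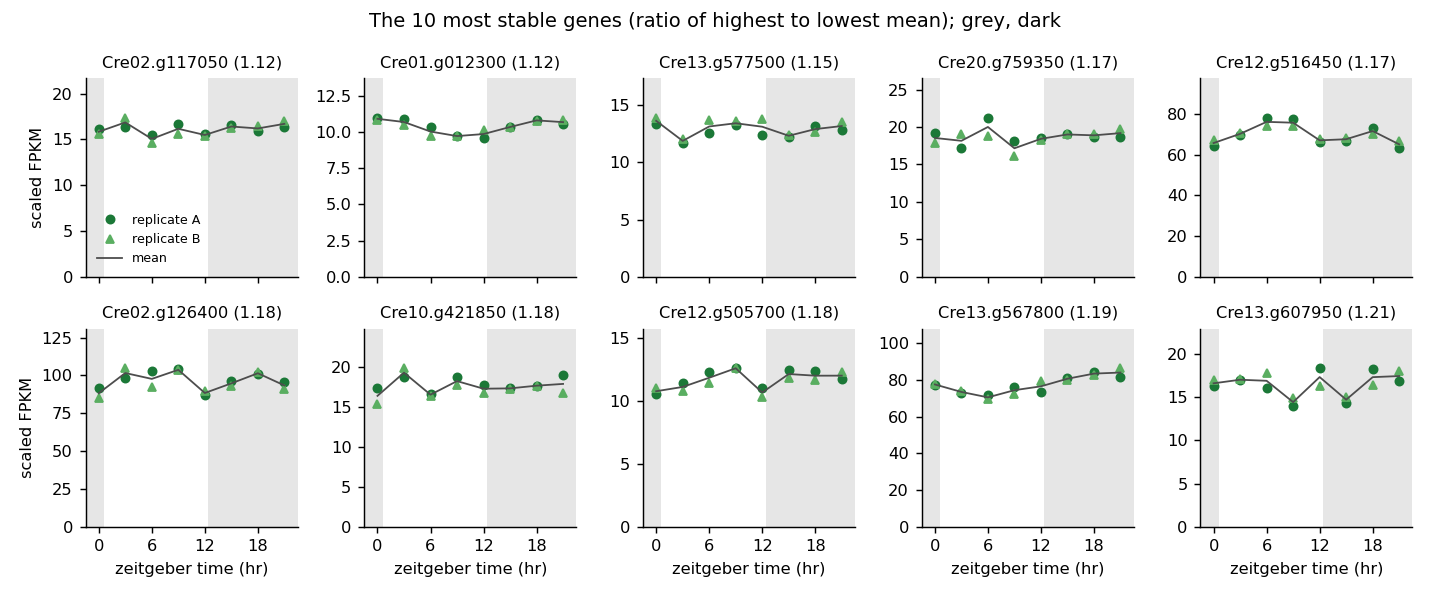
Scaled FPKM (y axis from 0) of the 10 most stable genes against zeitgeber time in hr. Circles are replicate A, triangles replicate B, the line is their mean, and grey marks the dark. Ratios in the titles run from 1.12 to 1.21, and lit and dark values overlap in each panel.

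Because the rule used these values, tests over time only describe how much of the remaining variation exceeded the replicate spread. By limma's F-test, 99.2% of 12153 genes (mean level 1 FPKM or more) differed among the 8 time points at an adjusted p under 0.05, and 94 of the 100 stable genes did. The 6 genes that did not pass all lie among the 8 smallest ratios. They are Cre02.g117050 (limma, adjusted p = 0.344), Cre01.g012300 (0.186), Cre13.g577500 (0.255), Cre20.g759350 (0.384), Cre10.g421850 (0.176) and Cre12.g505700 (0.0573). A p above the threshold does not show that their levels were equal. Their Tukey limits allowed differences of between 1.21-fold (Cre01.g012300) and 1.43-fold (Cre20.g759350). Over the 100 genes the median of this upper limit was 1.56-fold and the highest 2.18-fold, and 98 of 100 were under 2-fold, as were 10.9% of the 2828 genes.

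A 24-hr cosine wave was called in 35 of the 100 genes, beside 82.4% of all genes tested. As deposited it was called in 58, and with median-of-ratios scaling in 20, beside 79.2% and 82.4% of all genes tested. On the log2 scale, the amplitude had a median of 0.13 in the stable genes and of 0.56 in the 2828 genes. The highest mean fell on a lit time point for 75 of the 100 genes and for 76.2% of the 2828 genes, while as deposited it did for 40 of the 100. ZT 9 was highest for 29 stable genes, beside 16.3% of the 2828, and ZT 6 for 25, beside 25.3%. Means were lowest at ZT 15 in 20 genes, beside 13.5% of the 2828, and at ZT 12 in 19, beside 15.0%. The replicates had the same highest time point in 56 of the 100 genes, compared with 80.1% of the 2828 genes.

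Choosing in 1 replicate and measuring in the other gives values that the choice did not use. When the 100 smallest ratios were taken from the 8 libraries of replicate A, all under 1.45 there, the same genes had a median ratio of 1.37 in replicate B. The median of all genes over the same level floor was 3.14 in replicate B. Ratios in replicate B ran from 1.11 to 1.90, so that all 100 genes were within 2-fold, as were 21.1% of all genes over the floor. Of the 100, 79 were within 1.5-fold, beside 4.79%, and 71 were among the 100 smallest of replicate B, out of 2838 genes. When replicate B chose, the median in replicate A was 1.38 beside 3.13, with 83 genes within 1.5-fold, beside 5.01%. Of the genes chosen in replicate A 80 are among the 100 described here, and of those chosen in replicate B 85 are. These overlaps are partly built in, since the means that ranked the 100 include both replicates. Without scaling, the genes chosen in replicate A had a median ratio of 1.36 in replicate B, but only 34 of them are among the 100. Of those chosen in replicate B without scaling, 26 are. The split therefore covers the replicate spread and not the choice of scaling.

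**Figure D3:**
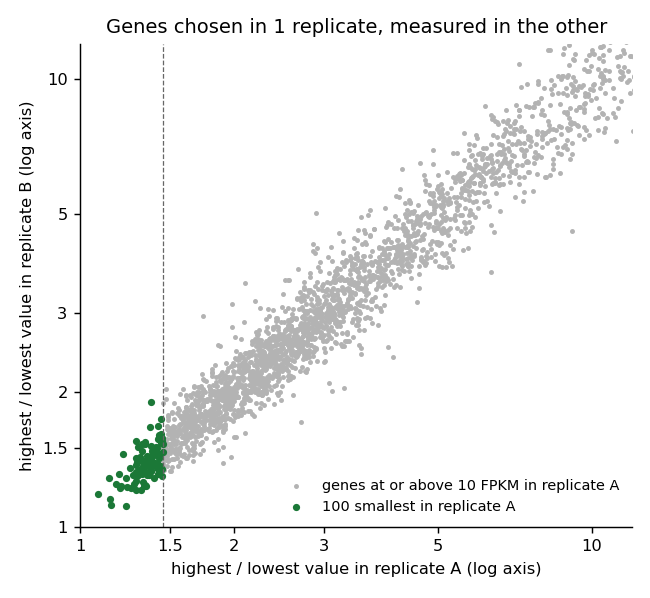
Ratio of the highest to the lowest of 8 values in replicate B against that in replicate A (both axes log, in fold), for genes whose mean in replicate A reached 10 FPKM. Green points are the 100 genes with the smallest ratio in replicate A, left of the dashed line at 1.45, and they lie between 1.11 and 1.90 in replicate B. Axes end at 12, and 428 of 2838 genes, none of them green, lie outside.

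Replicate noise enters the time-point means, so a rule on their ratio can favour genes with little of it. The difference between the replicates of a time point was not used directly, but it is not independent of the choice. Its SD, pooled over time points on log2(FPKM + 1), had a median of 0.060 in the stable genes and 0.087 in the 2828 genes, and it was under 0.087 in 95 of the 100. The SD that counting fragments alone would give, on log2 FPKM without the added 1, had medians of 0.038 and 0.042. In 13 of the 100 genes the replicate SD was smaller than this counting SD. The added 1 lowers the replicate SD but not the counting SD, most of all in genes of low level. This count therefore compares different scales and can be too high, and no share of the 2828 genes is given beside it. For depth, the median library held 1470 fragments for a stable gene at the median and 1493 for one of the 2828, and the shallowest library of a gene held 642.5 and 520.5.

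The median level was 21.0 FPKM in the 100 genes and 21.8 FPKM in the 2828, and 47 of the 100 were under 20 FPKM, as were 46.0% of the 2828. At 100 FPKM or more were 6 of the 100 genes and 13.01% of the 2828. The span on the genome had a median of 2551.5 bp in the stable genes and 3113.5 bp in the 2828. The 100 genes lie on 16 chromosomes and, for 7 of them, on unplaced scaffolds. Cre01.g044050 and Cre01.g044100 are the only neighbours without another gene model between them.

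Roles could be read only from the domain trees of the study, as far as they were used here, which place 22 of the 100 genes and 567 of the 2828 in a domain family. The other 78 are named by locus only. The clearest family by level is 14-3-3, small adaptor proteins that bind phosphorylated partner proteins in plants, animals and fungi. The tree holds 2 gene models of this alga, both are among the 100, and they have the highest levels of all 100 genes.

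Cre06.g257500 (chromosome 6, 1194051 to 1195396) had a mean of 547 FPKM. In replicate A it had 566, 460, 515, 552, 634, 543, 591 and 569 FPKM from ZT 0 to ZT 21. In replicate B it had 529, 476, 439, 559, 649, 556, 590 and 527 FPKM. It was highest at ZT 12, just before lights off, in both replicates (641 ± 11.1 FPKM), and lowest in mean at ZT 3 (468 ± 11.4 FPKM), a ratio of 1.37.

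Cre12.g559250 (chromosome 12, 9000941 to 9003371) had a mean of 510.2 FPKM. Its levels from ZT 0 to ZT 21 were 546, 408, 577, 590, 495, 470, 513 and 463 FPKM in replicate A. In replicate B they were 534, 431, 555, 580, 523, 490, 504 and 485 FPKM. It was lowest at ZT 3 in both replicates (420 ± 15.7 FPKM) and highest at ZT 9 (585 ± 7.13 FPKM), so that both 14-3-3 genes had their lowest mean 3 hr after lights on but differed in when they were highest. As deposited, the lowest values of Cre06.g257500 were at ZT 6 in replicate B (439 FPKM) and at ZT 3 in replicate A (494 FPKM), and Cre12.g559250 was again lowest at ZT 3 in both. The quotient of the first over the second gene was between 0.79 and 1.28 in the 16 libraries and above 1 in 11. Tukey limits allowed differences between time points of up to 1.66-fold for Cre06.g257500 and 1.55-fold for Cre12.g559250.

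Among 87 genes at or over 500 FPKM, whose median ratio was 2.44, the 14-3-3 genes had the 2 smallest ratios. This order rests on the scaling. In FPKM as deposited the ratio of Cre06.g257500 was 1.85 (rank 558) and that of Cre12.g559250 1.62 (rank 315). A gene with an ubiquitin-like domain, Cre06.g273600, had 1.34 there. Ubiquitin marks proteins for breakdown, and its genes are usual reference genes. With scaling, Cre06.g273600 (1082 FPKM) had a ratio of 1.56 and ranked 201, from 903 ± 6.08 FPKM at ZT 9 to 1408 ± 42.3 FPKM at ZT 3.

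**Figure D4:**
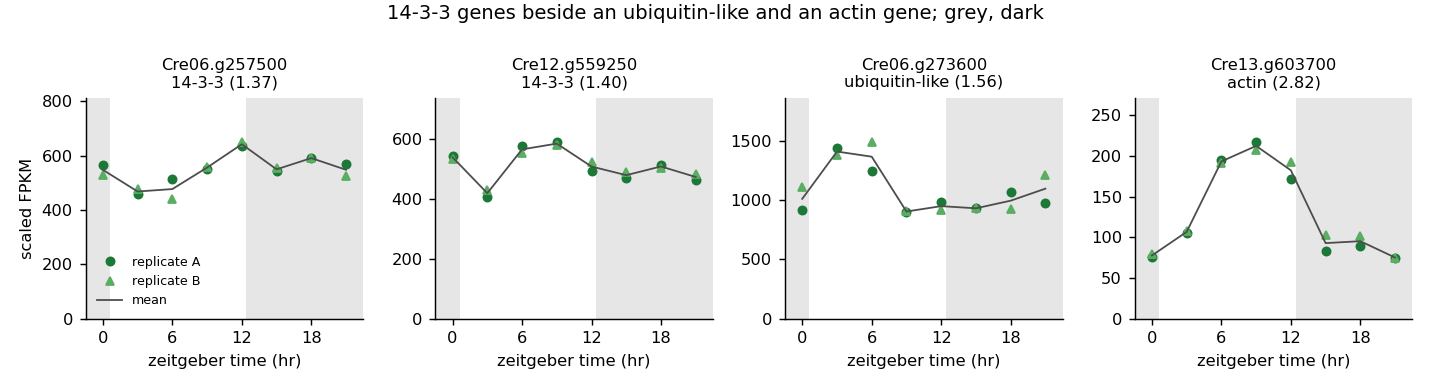
Scaled FPKM (y axes from 0) against zeitgeber time in hr for both 14-3-3 genes, the ubiquitin-like gene Cre06.g273600 and the actin gene Cre13.g603700. Circles are replicate A, triangles replicate B, lines their mean, and grey marks the dark. The 14-3-3 genes stay between 408 and 649 FPKM, and the actin gene between 75.2 and 217 FPKM.

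After scaling, other families that serve as references had higher median ratios, counting genes at or over 10 FPKM. The medians of 14-3-3 and ubiquitin-like genes were 1.38 and 1.56 after scaling, but close as deposited, at 1.73 and 1.77. Of 2 actin genes among the 2828, Cre13.g603700 had 75.2 FPKM at ZT 21 and 212 FPKM at ZT 9 (ratio 2.82), and Cre06.g249200 had a ratio of 1.83. The 5 tubulin genes over this floor, whose proteins form microtubules and flagella, ran from 4.80 to 299. Of glyceraldehyde-3-phosphate dehydrogenase, of sugar metabolism, 2 genes were over the floor, at 15.8 and 23.6. The family also holds Cre07.g354200, which was under the floor with a mean of 3.61 FPKM and had a ratio of 1.48. Ubiquitin-like genes were the nearest, with 6 of 9 within 2-fold. Cre09.g396400 is the only one of them among the 100, with 34.8 FPKM on average and a ratio of 1.32. Cre12.g554750 (1.46) and Cre01.g007051 (1.55) lay just outside, at ranks 113 and 193. RACK1, elongation factor 1-alpha, ribosomal protein L13 and YPTC1 could not be matched to a locus and were not analysed here.

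Protein kinases were the largest family, with 7 of 72 expressed genes (9.72%) among the 100, beside 3.54% of the 2828 genes. The median ratio of the 72 was 2.04. Besides Cre02.g117050 they are Cre05.g232750, Cre10.g436100, Cre07.g319850, Cre13.g566450, Cre12.g499500 and Cre10.g419450, with ratios from 1.28 to 1.42. All 7 had levels between 10.1 and 20.9 FPKM and spans of 5168 to 10661 bp, beside medians of 21.8 FPKM and 3113.5 bp in the 2828 genes. A difference from the other kinase genes in level or span was not tested. The family shares no time of day. Cre05.g232750 stood out only at ZT 21, with 20.2 and 18.1 FPKM against 14.1 to 16.6 FPKM in the other 14 libraries. Cre12.g499500 had 10.5 and 10.5 FPKM at ZT 0 and 13.9 and 14.3 FPKM at ZT 6 after scaling (limma, adjusted p = 7.94e-04 among time points), but 14.04 and 13.9 FPKM and then 13.8 and 14.3 FPKM as deposited. Cre13.g566450 was lowest at ZT 12 with 17.1 and 17.8 FPKM and had its highest mean at ZT 6 with 24.2 and 22.6 FPKM. Cre10.g419450 had the widest replicate spread of the 7, with 17.1 and 13.3 FPKM at ZT 6. Without scaling none of the 7 was among the 100 smallest ratios (1.38 to 1.72), with median scaling 4 were, and with median-of-ratios scaling 6 were.

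The other placed genes come from several families. Cre03.g189250 encodes a GTPase of the trees that hold Ras, Arf and translation factors, molecular switches of traffic and translation, and ran from 34.8 FPKM at ZT 15 to 48.1 FPKM at ZT 12. Cre10.g453050 carries a cyclin domain, of the proteins that activate cell cycle kinases, and was highest at ZT 6 (56.9 ± 1.34 FPKM) and lowest at ZT 12 (42.0 ± 1.77 FPKM). Its ratio of 1.35 was the smallest of 7 cyclin genes, whose median was 2.94 and whose highest was 313. The RNA-binding genes Cre17.g725300 and Cre16.g656250, with an RNA recognition motif, had their extremes at different times. The first was highest at ZT 18 (13.1 ± 0.68 FPKM) and lowest at ZT 6 (9.37 ± 1.02 FPKM), and the second was highest at ZT 9 (17.9 ± 1.53 FPKM) and lowest at ZT 0 (12.6 ± 0.081 FPKM). Cre06.g252550, with the acyltransferase domain of 2-oxoacid dehydrogenase complexes of central carbon metabolism, ran from 17.5 FPKM at ZT 18 to 21.4 FPKM at ZT 15. Cre09.g403450 (RING finger and ankyrin repeats) and Cre12.g508150 (SNF2 helicase) had ratios of 1.43 and 1.43.

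Several groups had no gene among the 100, beside 3.54% of all 2828 genes, and the smallest of these groups hold few genes. None of 52 chaperone genes, which fold proteins, had a ratio under 2.03, and their median was 2.98. All 14 genes of the 20S proteasome, the core that degrades proteins, lay between 2.36 and 3.67. The 16 mitochondrial carriers had a median of 3.58, the 18 other transporters 3.55 and the 5 Calvin cycle genes 7.99. Ribosomal proteins and translation factors had a lower median of 1.85, and 19 of 29 were within 2-fold. Cre03.g189250, which is also in the Ras and Arf trees, was among the 100, or 3.45% of the 29 genes. The tree of translation factor GTPases gave 17 of the 29, and a role in translation is not shown for each of them. These counts cover only the families used here.

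Which genes count as most stable depends strongly on how libraries are scaled. The factors applied were between 0.69 and 1.01 and were highest at ZT 3 and ZT 6. As deposited, the 100 genes had a median ratio of 1.51, and only 26 of them were among the 100 smallest ratios. Their median level relative to each gene's mean was then lowest at 0.83 in 1 library of ZT 6 and highest at 1.14 in 1 of ZT 18. After scaling to the 75th percentile, the same medians lay between 0.95 and 1.08.

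The direction of the difference between light and dark changed with the scaling. With the 75th percentile, 45 genes were called higher in light (limma, adjusted p under 0.05), where 44.5% of all genes tested were, and 13 higher in dark, where 39.5% were (58 in either direction, beside 84%). As deposited, limma called 0 higher in light (0 at an unadjusted p under 0.05) and 78 higher in dark, beside 28% and 54.7% of all genes tested. Median scaling gave 74 higher in light and 0 higher in dark (0 unadjusted), beside 51.5% and 34.1%. Median-of-ratios scaling gave 38 and 17, beside 42.5% and 41.1%. The median difference of light minus dark on log2(FPKM + 1) was 0.06, -0.18, 0.17 and 0.04 under the 4 scalings in this order. The median over the 2828 genes moved along, with 0.21, -0.04, 0.31 and 0.18. A call of light or dark for these genes therefore holds only for the scaling it is given with.

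**Figure D5:**
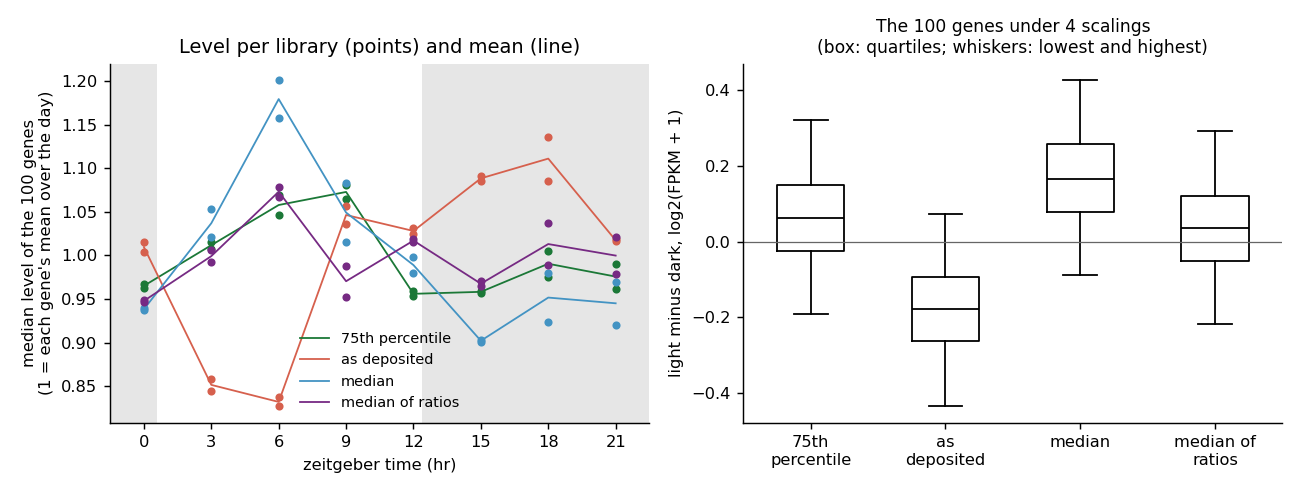
Left, median level of the 100 genes in each library, relative to each gene's mean over the day, against zeitgeber time in hr (grey, dark) under 4 scalings; points are libraries and lines the mean of replicates. Right, light minus dark on log2(FPKM + 1) of the 100 genes, where boxes are quartiles and whiskers the lowest and highest gene. As deposited the level is lowest at ZT 6 and the median difference is -0.18, while with median scaling the level is highest at ZT 6 and the median difference is 0.17.

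A core of 8 genes stayed among the 100 smallest ratios under all 21 alternatives of 3 kinds, which were other scalings, either replicate alone, and each library left out. They are Cre22.g763400, Cre08.g378550, Cre16.g683150, Cre17.g718200, Cre18.g745500, Cre10.g422600, Cre11.g478900 and Cre12.g496750. Their ratios were between 1.24 and 1.32 with the 75th percentile, 1.21 and 1.34 as deposited, 1.36 and 1.501 with the median, and 1.15 and 1.43 with the median of ratios. Their means were between 11.4 and 85.9 FPKM. Level floors were not among the alternatives, and Cre17.g718200, at 11.4 FPKM, lies under one of 20 FPKM. None of the 10 smallest ratios and neither 14-3-3 gene belongs to this core.

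Only Cre12.g496750 of the core (chromosome 12, 1658486 to 1660950) was placed in a family, that of 4Fe-4S ferredoxin domains, which carry electrons on iron-sulfur clusters. In replicate A it had 34.6, 38.5, 39.5, 41.1, 31.0, 33.4, 33.6 and 31.5 FPKM from ZT 0 to ZT 21. In replicate B it had 36.6, 38.5, 40.7, 40.8, 30.9, 31.6, 31.2 and 34.8 FPKM. It was highest at ZT 6 and ZT 9 and lowest at ZT 12 in both replicates (limma, adjusted p = 1.83e-04 among time points). As deposited, ZT 6 had instead its lowest values, 39.3 and 40.7 FPKM, while ZT 9 remained highest with 50.3 and 51.5 FPKM.

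Cre08.g378550 (chromosome 8, 3112110 to 3114378) had 44.2, 51.5, 53.0, 50.8, 40.8, 44.5, 43.3 and 44.7 FPKM in replicate A. In replicate B it had 42.3, 49.7, 53.7, 52.3, 44.1, 40.1, 42.0 and 44.9 FPKM. ZT 3, 6 and 9 were above every other time point in both replicates after scaling. As deposited, ZT 3 and ZT 6 were its lowest time points, with 53.1 to 55.4 FPKM and with 52.7 and 53.7 FPKM. Cre18.g745500, on scaffold 18, showed the same step, from 48.9 to 53.1 FPKM at these time points and from 39.2 to 46.1 FPKM at all others, and it too was lowest at ZT 6 as deposited, with 50.6 and 52.2 FPKM. Cre11.g478900 differed from both. Its 6 values at ZT 0, 3 and 6 were between 21.8 and 26.3 FPKM, and the 10 others were between 18.8 and 20.1 FPKM. As deposited, its values at ZT 6 were 24.8 and 21.8 FPKM and those at ZT 0 31.6 and 31.1 FPKM, and the others were between 23.2 and 28.6 FPKM. The small range of the core is what chose it and is not a result. Among time points all 8 genes differed (limma, adjusted p from 6.68e-05 to 0.0122), beside 99.2% of all genes tested. The course within the range depends on the scaling.

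Beyond the core, Cre02.g100200 and Cre03.g204650 stayed among the 100 under every scaling, at means of 97.0 and 89.7 FPKM. Both had smaller ratios as deposited (1.19 and 1.22) than after scaling (1.37 and 1.39), and the same held for Cre10.g459750 (107 FPKM, 1.20 and 1.37). The other genes of high level, Cre02.g093650 (138 FPKM, 1.43), Cre02.g140350 (113 FPKM, 1.40), Cre06.g307200 (109 FPKM, 1.33) and Cre18.g746650 (88.6 FPKM, 1.26), had different times of their highest mean after scaling, ZT 3, ZT 6, ZT 0 and ZT 9. When only libraries or replicates were left out, 61 of the 100 genes kept their place throughout.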

How the data were processed

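RNA of 16 cultures was sequenced. The authors aligned reads to genome version 4.3 (TopHat) and derived FPKM of each gene model (Cufflinks); tool versions are not given in the sources used here. The deposited FPKM are not scaled between libraries. Groups came from the sample titles, also at ZT 6, where the file names carry other letters. Scaling set each library to the 75th percentile of ZT 6 replicate B over 17114 gene models, and the factors were within 0.0109% of those in a deposited table of 50 upper-quartile-normalized genes. Fragments were recovered from the deposited confidence limits of FPKM, which lie 2 times the FPKM over the root of the fragments away, and they cover counting error only.

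Tests used limma 3.58.1 in R 4.3.3 on log2(FPKM + 1) of 12153 genes that averaged 1 FPKM or more, with a trend in the variance, no replicate term and Benjamini-Hochberg adjustment at 0.05, and were tested on simulated data. A fold on this scale understates changes of low genes. All 100 genes passed the filter. Other steps ran in Python 3.11.15 (scipy 1.17.1, numpy 2.4.6, matplotlib 3.10.9, pandas 2.3.3).

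The genes, gene lists and tests were chosen with earlier results of these data known. Named genes are the 10 smallest ratios, the 10 highest levels, ranks 99 to 102, those kept under all scalings and omissions, members of groups with 3 or more genes among the 100, and usual reference genes; other genes of a family were named after their values were seen. Lists by product name could not be formed, since the reference (version 5.5) pairs 87 of the 100 loci with no description, and domain families of 200 trees stood in, which hold part of all families. Coordinates are as the files give them. Replicate letters were checked for pairing by the correlation of A minus B between time points over genes, which was between -0.27 and 0.33 and over 0.1 in 10 of 28 pairs, so that pairing was not taken as shown and the letters were not used as pairs. The replicates of a time point were run in separate sequencing lanes, per the paper's methods; which library ran in which lane is not given there, and a part of the lanes in the results was not tested. Other scalings, level floors, measures, pseudocounts, filters, a replicate term and omitted libraries were tried; median-of-ratios scaling was added after seeing the data. Sequences and promoters were not analysed here.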

Additional observations from a re-analysis of the deposited data

How the results depend on the processing

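Of the 100 genes, 26 were among the 100 smallest ratios in FPKM as deposited and 66 with median scaling, 58 with a level floor of 5 FPKM (more genes compete) and 53 with one of 20 FPKM (genes under it drop out). Leaving out a library or a replicate kept between 80 and 99. Their median ratio was 1.51 as deposited, 1.45 with median scaling, 1.36 with median-of-ratios scaling, and from 1.34 to 1.37 with a library or replicate left out. The cosine was called in 58 genes as deposited and in 20 with median-of-ratios scaling, beside 79.2% and 82.4% of all genes tested. With libraries or replicates left out it was called in 0 to 32. For light and dark these omissions gave 0 to 60. Both counts of 0 are from limma on replicate A or replicate B alone (8 libraries, 0 at an unadjusted p under 0.05). In these 2 fits the share of all genes tested fell as well. It was 47.6% and 45.3% for the cosine. For light and dark, compared there as 2 groups without time points, it was 10.7% and 7.78%. Leaving out 1 library gave at least 24 and 55 genes, beside at least 79.1% and 82.4% of all genes tested. Genes chosen in replicate A and measured in B had a median ratio of 1.36 as deposited, and in the reverse direction 1.36. Any difference among time points was called in 91 to 99 genes under every alternative run, beside 91.0% to 99.3% of all genes tested. With a replicate alone it could not be tested. With a replicate block the counts were 94 for time points, 27 for the cosine and 58 for light and dark. The shares of all genes tested were 99.2%, 80.6% and 84.0%, and no count of the 100 moved by over 1.5 times. With 2 cultures per time point, and 187 or more fragments per gene and library in the 35 named genes, the Tukey limits describe the room left by the replicate spread. They start from the range that the rule kept small and do not cover the choice of scaling, so larger differences remain possible.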

Other observations

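In 6 domain families of the small and large subunit with 1 expressed gene each, the ratio of highest to lowest time-point mean was smaller in FPKM as deposited than after scaling to the 75th percentile. It was 1.23 and 1.74 for S3 (Cre02.g102250), 1.34 and 1.73 for S4 (Cre08.g359750), and 1.38 and 1.67 for S7 (Cre06.g290950). For S12 (Cre12.g504200) it was 1.31 and 1.65, for S19 (Cre08.g360900) 1.29 and 1.69, and for L16 (Cre09.g388200) 1.24 and 1.53. None of these genes is among the 100, which were chosen after scaling. As deposited the ratio at place 100 was 1.345, and those of S3, S12, S19, L16 and, narrowly, S4 (1.344) were smaller. Chaperones had a median of 2.97 as deposited and 2.98 after scaling.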
